A study of Arabidopsis thaliana with 6 samples.

Results

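The 88 plastid-encoded genes described here are the loci of a table of AGO1-bound small RNAs whose identifiers begin with ATCG, the prefix of Arabidopsis chloroplast genes. They were 88 of 32420 loci. Membership was set by the identifier alone, so no measured value decided which loci belong. The set itself was chosen with earlier results of these data known. ARGONAUTE1 (AGO1) is the main effector protein of plant microRNAs (miRNAs) and of many small interfering RNAs (siRNAs). Small RNAs bound to it were recovered with an antibody to AGO1 from aerial parts of Arabidopsis thaliana plants aged 20 days, which had spent 6 days on MS medium and 14 days on soil and were given no treatment. There were 2 libraries for each of 3 genotypes: Col-0, which is the wild type, ein5 dcl4, a double mutant with the alleles ein5-1 and dcl4-2, and ein5 dcl4 dcl2, a triple mutant that carries dcl2-1 in addition. Both mutants thus carried the ein5 and dcl4 alleles, and they differed from each other at DCL2. The study's description calls the libraries biological replicates.

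The chloroplast genome codes for part of the photosystems, the ATP synthase, the NADH dehydrogenase-like complex, the large subunit of Rubisco, ribosomal proteins, ribosomal and transfer RNAs and the plastid's own RNA polymerase. Its RNAs are made and broken down inside the organelle. EIN5, also called XRN4, is an exonuclease that degrades uncapped RNA in the cytoplasm, and the Dicer-like proteins DCL4 and DCL2 cut siRNAs from double-stranded RNA. A small RNA assigned to a plastid gene in this assay is a fragment found in the AGO1 precipitate, not a measure of the gene's messenger RNA.

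Neither the table nor the annotation used here pairs the ATCG identifiers with gene symbols: 0 of the 88 matched, whereas 31722 other loci did. Notes in the RefSeq annotation gave a product for 6 of them, and these are named below. All other plastid genes are given by identifier, and only a few of each direction are printed. For the same reason the members could not be sorted into ribosomal RNA, transfer RNA and protein-coding genes, and no value was divided by gene length.

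Each deposited value was the mean of 2 libraries, and the whole reads of both could be recovered from it. The libraries are called a and b, because the table does not say which replicate each is. They held 836879 to 1292727 reads, and 1 read was worth 0.185 and 0.257 deposited units in the wild type, 1.92 and 2.79 in the double mutant, and 1.71 and 1.9 in the triple mutant. A count of 0 allows up to 3 reads, or 0.555 and 0.770 units in the wild type, 5.75 and 8.37 in the double mutant and 5.12 and 5.70 in the triple mutant. Small changes of a low gene were thus not detectable in the mutants. EIN5 held 26 and 5 reads in the wild type, 0 and 1 in the double mutant and 0 in both triple mutant libraries. In deposited units both wild-type values lay below what a count of 0 allows in either mutant, so these reads do not check the ein5 mutation. Reads at DCL4 (0 to 8 per library) and DCL2 (up to 2) were also too few to check the mutations. The table counts small RNAs, so markers of tissue or cell type, which are messenger RNAs, were not checked. No library of total small RNA and no mock precipitation was analysed here, so binding to AGO1 and the amount of a fragment in the extract cannot be told apart.

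Plastid genes were a small part of the AGO1-bound pool in every genotype. They held 1389 and 1035 reads in the wild type, 267 and 227 in the double mutant, and 678 and 515 in the triple mutant. Of the 88 genes, 86 had a read in at least 1 library and 2 had none. In the wild type 85 genes had a read, against 64 in the double mutant and 74 in the triple mutant. The genes with 10 or more reads over both libraries numbered 45, 10 and 16 in the same order. Between the libraries of a genotype the plastid genes with at least 10 reads varied close to counting error, with chi-square values of 1.39, 0.711 and 1.31 per degree of freedom. All loci with at least 10 reads gave 3.18, 5.26 and 5.82. The plastid genes and all loci were not matched for read number, so these values do not show that plastid genes were more reproducible. Reads without molecular identifiers are not independent molecules, so such checks, and all intervals here, cover counting error only. In such bulk samples fewer cells holding plastid RNA and less small RNA per cell cannot be told apart.

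Some reads could not be placed on a single gene. For 6 pairs of plastid genes with at least 10 reads the counts were equal in all 6 libraries. One such pair was ATCG01310, annotated as ribosomal protein L2, and ATCG00830, with 9 and 10 reads in the wild type, 2 and 1 in the double mutant and 3 and 2 in the triple mutant. RefSeq lists 2 copies of the ribosomal protein L2 gene in the chloroplast, and a read matching both may be counted at each. In the RefSeq genome 34.1% of the chloroplast's stretches of 21 bases occurred more than once in the chloroplast, and 9.15% also occurred in the nuclear chromosomes or the mitochondrion. Reads from such stretches may come from a copy outside the plastid.

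The order of the genotypes in plastid reads depended on what they were divided by. As a share of all reads, plastid genes held 0.114% and 0.108% in the wild type, 0.0207% and 0.0271% in the double mutant, and 0.0615% and 0.0611% in the triple mutant. Col-0 was highest and ein5 dcl4 lowest, with no overlap between genotypes. The means were 0.111% ± 0.00419 (SD, n = 2), 0.0239% ± 0.00458 and 0.0613% ± 0.000288. Against miRNA loci the double mutant moved from last to first, while the triple mutant remained below the wild type. Plastid reads per 100 miRNA reads were 0.174 and 0.159 in the wild type, 0.559 and 0.565 in the double mutant, and 0.0637 and 0.0636 in the triple mutant.

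Against nuclear protein-coding loci the triple mutant was highest. Plastid reads per 100 such reads were 0.719 and 0.742 in the wild type, 0.0217 and 0.0288 in the double mutant, and 4.56 and 3.97 in the triple mutant. Without the 10 largest loci of the table the plastid share was 0.218% and 0.216% in the wild type, 0.0483% and 0.0636% in the double mutant, and 0.266% and 0.234% in the triple mutant. In deposited units the plastid sum was 261 ± 5.95 in the wild type, 572 ± 86.1 in the double mutant and 1068 ± 127 in the triple mutant (SD, n = 2). For each of these measures the libraries of any 2 genotypes did not overlap, and an exact two-sided permutation test gave 0.333, the lowest p possible with 2 libraries a genotype. A single direction for plastid small RNAs as a whole was therefore not given by these data.

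**Figure D1:**
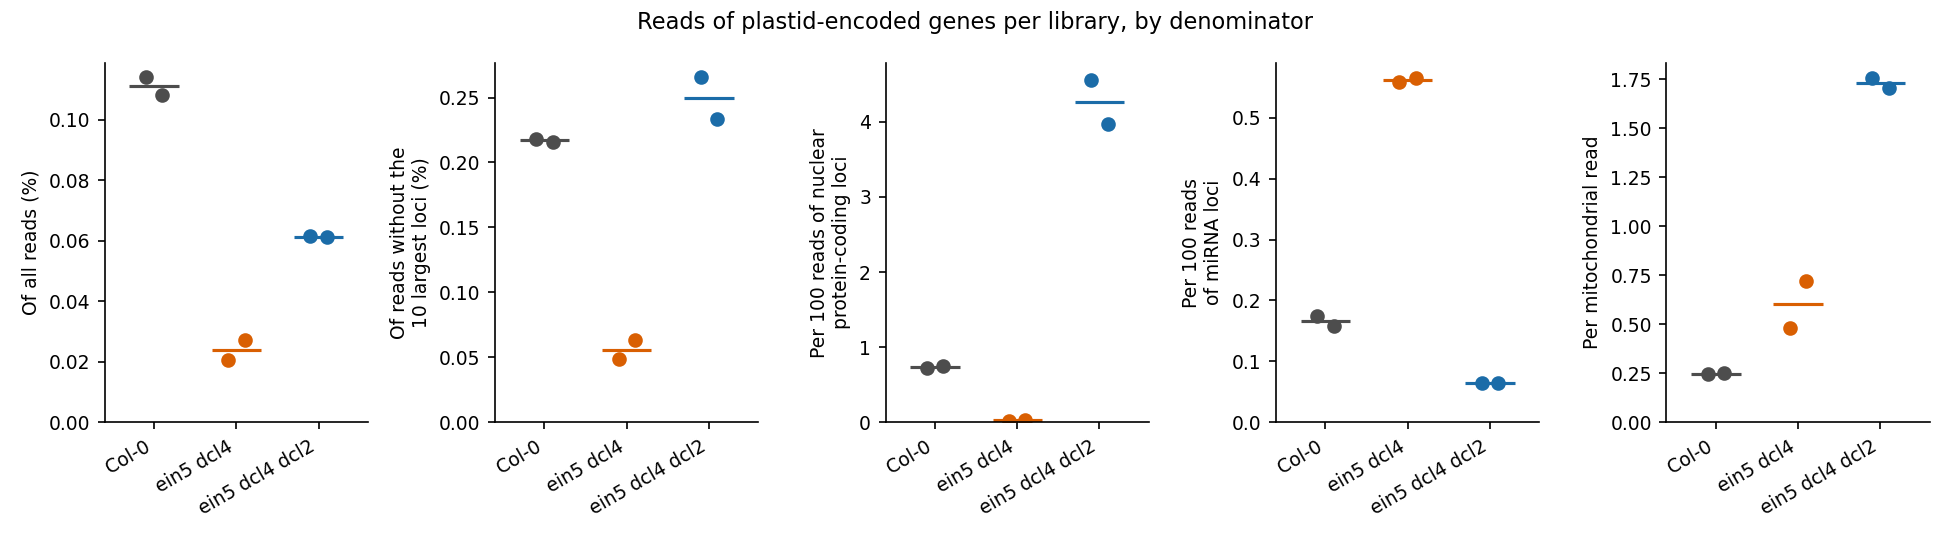
Reads of the 88 plastid-encoded genes in each library (points; the line is the mean of 2 libraries) for the 3 genotypes, divided by all reads, by reads without the 10 largest loci, by reads of nuclear protein-coding loci, by reads of miRNA loci and by mitochondrial reads. The genotype with the highest value is Col-0 in the first panel, ein5 dcl4 in the panel for miRNA loci and ein5 dcl4 dcl2 in the other panels.

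Mitochondria-encoded genes, the other organelle set of the table, followed another course. This measure was chosen after the values had been seen. The 122 mitochondrial loci held 5696 and 4109 reads in the wild type, 555 and 315 in the double mutant, and 386 and 302 in the triple mutant. Plastid reads per mitochondrial read were 0.244 and 0.252 in the wild type, 0.481 and 0.721 in the double mutant, and 1.76 and 1.71 in the triple mutant. This ratio needs no scaling between libraries, and its 3 genotypes did not overlap, with an exact permutation p of 0.333 for each pair. In deposited units the mitochondrial sum was 1055 and 1054 in the wild type and 1063 and 878 in the double mutant, which overlapped, and 659 and 574 in the triple mutant.

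Few genes held most plastid reads. The 2 genes with the most reads were ATCG00020 and ATCG00490, which together held 31.0% and 30.7% of plastid reads in the wild type, 23.6% and 30.4% in the double mutant, and 56.3% and 50.7% in the triple mutant. The 10 genes with the most reads held 59.9% to 72.1% in every library. At the other end, 33 of the 88 genes had fewer than 10 reads over all 6 libraries together. Shares of plastid reads do not depend on the scaling between libraries, so they show how the makeup of the plastid set differed.

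ATCG00020 held about the same share in the wild type and ein5 dcl4 and a larger one in the triple mutant. Its reads were 238 and 180 in the wild type, 43 and 43 in the double mutant, and 243 and 188 in the triple mutant. As shares of plastid reads these were 17.1% and 17.4%, then 16.1% and 18.9%, then 35.8% and 36.5%. Col-0 and ein5 dcl4 overlapped, and both triple mutant libraries lay above all others. The exact 95% binomial intervals were 32.2% to 39.6% and 32.3% to 40.8% in the triple mutant, against 15.2% to 19.2% and 15.1% to 19.8% in the wild type.

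ATCG00490 held 192 and 138 reads in the wild type, 20 and 26 in the double mutant, and 139 and 73 in the triple mutant. Its shares were 13.8% and 13.3%, 7.49% and 11.5%, and 20.5% and 14.2%. The double mutant was lowest and the triple mutant highest, but its library b in the triple mutant lay close to both Col-0 libraries.

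A group of 3 genes went the other way, with the largest share in the double mutant and the smallest in the triple mutant. These were ATCG00640, ATCG00650 and ATCG01050. They were grouped because they were the genes called lower in the triple than in the double mutant with the deposited scaling below, so that their shares are a description. With libraries scaled to equal plastid totals, 8 of 60 plastid genes (13.3%) were called lower in that comparison, against 42.8% of all loci tested. These 3 were among the 8, and some of the others formed pairs with equal reads, so the 8 are not all separate signals. Calls of a fall within the plastid set were thus not confined to these 3 genes. ATCG00640 held 59 and 36 reads in the wild type, 17 and 17 in the double mutant, and 2 and 1 in the triple mutant. ATCG00650 held 63 and 60, 25 and 19, and 6 and 2 reads. ATCG01050 held 49 and 28, 26 and 18, and 8 and 4 reads.

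Together the 3 genes held 12.3% and 12.0% of plastid reads in the wild type, 25.5% and 23.8% in the double mutant, and 2.36% and 1.36% in the triple mutant. No genotypes overlapped in this share. Because ATCG00640 had only 3 reads over both triple mutant libraries, its change is given as a ratio with an exact interval for counting error. These ratios use reads pooled over both libraries of a genotype, not the means of the libraries. Its share of plastid reads in the double mutant was 27.4 times that in the triple mutant (95% interval 8.61 to 139), and its share in the wild type was 15.6 times that in the triple mutant (5.17 to 76.9).

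**Figure D2:**
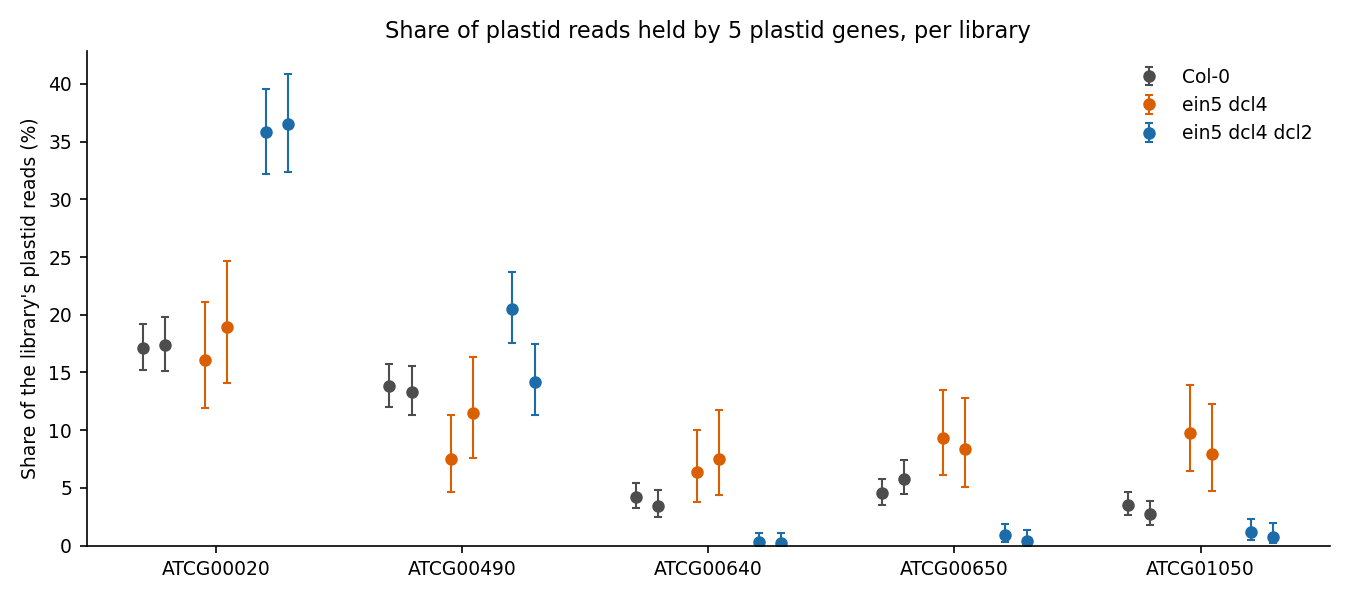
Share of a library's plastid reads (percent) held by each of 5 plastid genes, with 1 point per library and exact 95% binomial intervals as bars, which cover counting error only. ATCG00020 lies at 35.8% and 36.5% in the triple mutant and below 19% elsewhere, whereas ATCG00640, ATCG00650 and ATCG01050 are highest in the double mutant and near 0 in the triple mutant.

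The first comparison asked which genes had more or fewer AGO1-bound fragments when EIN5 and DCL4 were both lost. In ein5 dcl4 against Col-0, 7 plastid genes were higher and 2 lower in deposited units, out of 63 whose mean over the 6 libraries reached 1 unit. The other 25 were not tested. The test was limma on log2(units + 1) over all loci, with calls at a Benjamini-Hochberg adjusted p under 0.05. The 7 higher genes were 11.1% of those tested, against 38.7% of all loci tested, and the 2 lower genes were 3.17%, against 6.45%. The median log2 difference was 0.47 over the plastid genes and 1.49 over all loci tested.

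Among the genes called, the 2 largest increases were ATCG01050 and ATCG00740. Genes with larger log2 differences than ATCG00740 that did not pass the test included ATCG00890, at 2.05 (limma adjusted p 0.0831). ATCG01050 went from 8.13 ± 1.34 units in the wild type to 50.0 ± 0.287 in the double mutant (SD, n = 2), and its log2 difference was 2.49 ± 0.37 (SE; limma adjusted p 0.00728), higher in both libraries than in either wild-type library. ATCG00740, with 19 and 10 reads in the wild type and 5 and 8 in the double mutant, went from 3.04 ± 0.673 to 15.9 ± 9.0 units, with a log2 difference of 1.97 ± 0.48 (limma adjusted p 0.0253). ATCG00020 went from 45.1 ± 1.50 to 101 ± 26.6 units, with a log2 difference of 1.12 ± 0.26 (limma adjusted p 0.0227). All 3 of these genes had fewer reads in the double mutant than in the wild type over both libraries, and their increase in units rests on the deposited scaling, in which 1 read is worth more in the double mutant.

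The genes called lower were ATCG00160 and ATCG00730. ATCG00160 held 5 and 8 reads in the wild type and 0 in both double mutant libraries, and ATCG00730 held 9 and 4 against 0 and 0 (limma adjusted p 0.0492 and 0.0488). The 0.926 and 2.05 units of ATCG00160 in the wild type lay below the 5.75 and 8.37 units that a count of 0 allows in the double mutant, and the same held for the 1.67 and 1.03 units of ATCG00730. A lower level of either gene was therefore not detectable at this depth, whatever the call.

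The calls of this comparison did not hold without Col-0 library a or without Col-0 library b, which leaves 1 wild-type library. Shares of all loci called in those fits are not given here. Whether plastid genes were less stable than other loci is thus not shown. The calls also depended on the scaling. None of the plastid genes was called higher with trimmed-mean factors or equal table totals, where 5 and 38 plastid genes were called lower. Of all loci tested, 28.6% were higher and 27.7% lower with trimmed-mean factors, and 16.8% and 49.7% with equal table totals. Of 49 plastid genes with an adjusted p in the authors' deposited table, 2 were higher in the double mutant than in the wild type and 0 were lower, against 19.2% and 0.892% of all its loci with an adjusted p. These were ATCG00020, with a log2 fold change of 1.15 and an adjusted p of 0.0294 in the authors' deposited table, and ATCG01050, with 2.62 and 0.0119.

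The second comparison asked what changed when DCL2 was lost as well. Between ein5 dcl4 dcl2 and ein5 dcl4, 11 of the 63 tested plastid genes were higher in the triple mutant and 3 lower. The higher genes were 17.5% of those tested, against 11.3% of all loci, and the lower genes were 4.76%, against 35.9% of all loci. The median log2 difference was 0.59 over plastid genes and -1.33 over all loci tested.

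The 3 genes that fell were ATCG00640, ATCG00650 and ATCG01050, whose reads are given above. ATCG00640 fell from 40.0 ± 10.5 to 2.66 ± 1.07 units (SD, n = 2), with a limma adjusted p of 0.00314. From reads pooled over both libraries, the ratio of the double mutant to ein5 dcl4 dcl2 in units was 14.3, with an exact counting interval of 4.50 to 72.8. ATCG00650 fell from 50.4 ± 3.61 to 7.03 ± 4.56 units, with a log2 difference of -2.81 ± 0.49 (limma adjusted p 0.00945). ATCG01050 fell from 50.0 ± 0.287 to 10.6 ± 4.29 units, with a log2 difference of -2.18 ± 0.37 (limma adjusted p 0.00926). In each case both triple mutant libraries lay below both double mutant libraries.

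These decreases held under most of the alternatives run. All 3 genes were called lower under 13 of 15 alternative settings, among them all 4 other scalings, and 2 of the 3 under the other 2 settings, which left out ein5 dcl4 library a or b. There the limma adjusted p of ATCG00650 was 0.0599 and 0.0700. In the authors' deposited table, ein5 dcl4 was above ein5 dcl4 dcl2 by a log2 fold change of 3.89 for ATCG00640 (adjusted p 0.0137) and 2.83 for ATCG00650 (0.0225), and by 2.23 for ATCG01050 (0.0668), which did not pass.

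Among the genes that rose, ATCG00160 and ATCG00350 had the largest log2 differences. ATCG00350 held 33 and 34 reads in the wild type, 2 and 4 in the double mutant and 28 and 23 in the triple mutant. It rose from 7.49 ± 5.18 to 45.8 ± 2.92 units, with a log2 difference of 2.61 ± 0.52 (limma adjusted p 0.0134), and its call ended without either triple mutant library (adjusted p 0.0585 and 0.0564), while its log2 difference turned to -1.15 with equal miRNA totals. ATCG00160 had no read in the double mutant and 4 and 3 reads in the triple mutant (limma adjusted p 0.00513). Its 6.83 and 5.70 units in the triple mutant were not both above the 5.75 and 8.37 units that a count of 0 allows in the double mutant, so no fold is given.

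The genes with the most reads rose too. ATCG00020 rose from 101 ± 26.6 to 386 ± 40.9 units (SD, n = 2), by 1.94 ± 0.26 on the log2 scale (limma adjusted p 0.00489). It was called higher under 14 of the 15 alternatives, the exception being equal miRNA totals, where its log2 difference turned to -2.08. ATCG00490 rose from 55.4 ± 24.2 to 188 ± 69.8 units, with a log2 difference of 1.76 ± 0.43 (limma adjusted p 0.0240), and did not pass without ein5 dcl4 library a (adjusted p 0.0973) or ein5 dcl4 dcl2 library a (0.0941), or with equal plastid totals (0.0924), and turned to -2.23 with equal miRNA totals. Of the 11 genes called higher, 8 rested on fewer than 20 reads in the 4 libraries compared, and 5 had no read in the double mutant. The count of higher genes was smaller without ein5 dcl4 dcl2 library a or b, and without either Col-0 library, which the joint fit also uses. Shares of all loci called in those fits are not given here, so this shows no instability particular to plastid genes. With equal miRNA totals the count fell to 0, and 32 plastid genes were called lower. Of all loci tested, 0.964% were higher and 46.4% lower there. Of 27 plastid genes with an adjusted p in the authors' deposited table, 2 were lower in the double mutant than in the triple mutant, ATCG00020 (log2 fold change -1.95, adjusted p 3.17e-05) and ATCG00490 (-1.79, adjusted p 0.00855), and 2 were higher, as given above. Over all loci with an adjusted p in that table, 4.17% were lower and 15.3% higher.

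**Figure D3:**
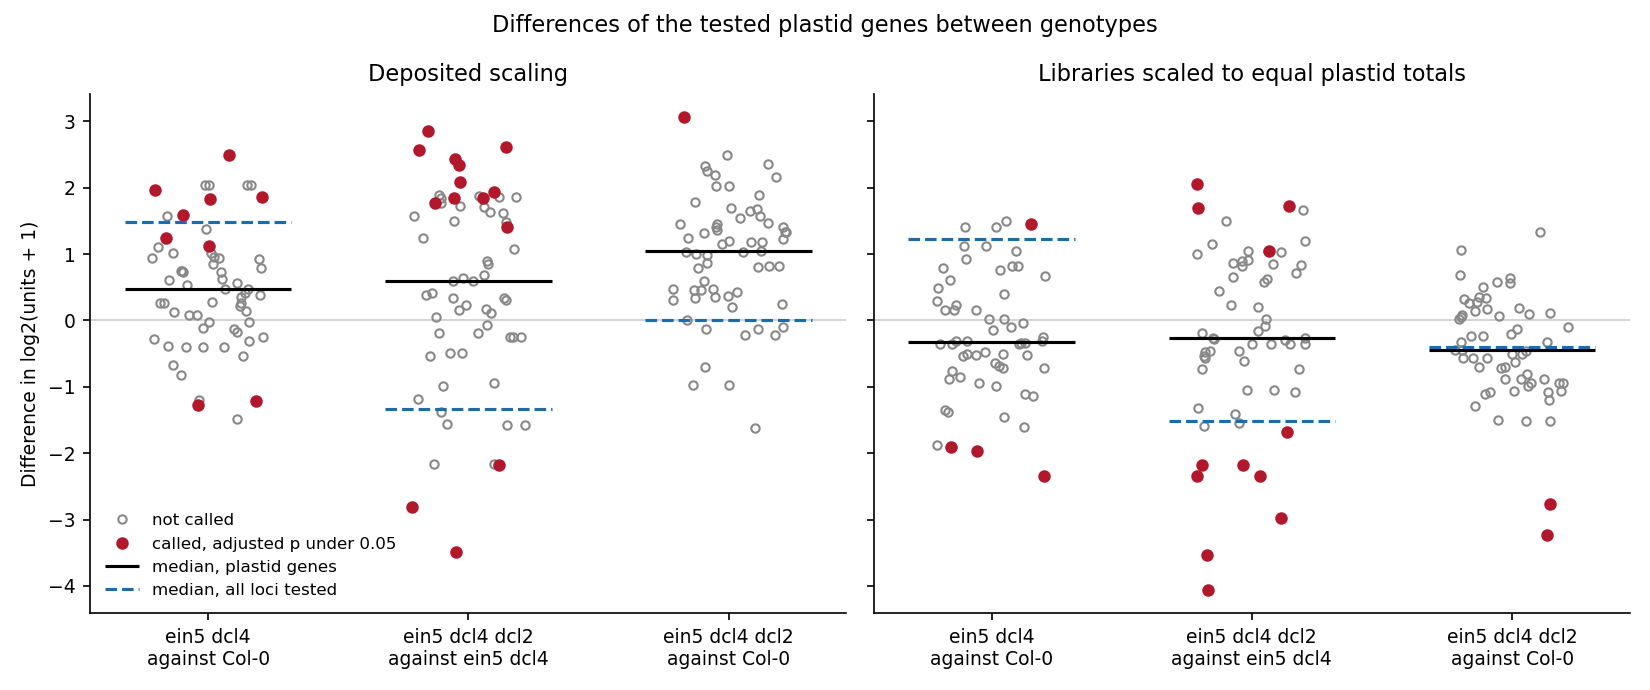
Difference in log2(units + 1) of each tested plastid gene (points, filled where the limma adjusted p was under 0.05) in the 3 comparisons, with the deposited scaling (63 genes) and with libraries scaled to equal plastid totals (60 genes). Solid lines are the median over plastid genes and dashed lines the median over all loci tested; with the deposited scaling the plastid median lies below that of all loci in the first comparison and above it in the other 2.

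The third comparison asked what differed from the wild type when EIN5, DCL4 and DCL2 were all lost. In ein5 dcl4 dcl2 against Col-0, 1 of the 63 plastid genes was higher and 0 were lower by limma, or 1.59% against 1.08% of all loci tested called higher and 0.299% called lower. At an unadjusted limma p under 0.05, 23 plastid genes were higher and 1 lower, against 11.1% and 4.25% of all loci tested. Limma-voom on the recovered reads called 30 higher and 0 lower, against 42.2% and 2.42%. The median log2 difference was 1.05 over plastid genes and 0.00 over all loci tested.

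The gene called higher was ATCG00020, with 45.1 ± 1.50 units in the wild type and 386 ± 40.9 in the triple mutant, a log2 difference of 3.07 ± 0.26 (SE; limma adjusted p 0.0132). Its read counts were nearly equal in the 2 genotypes, 238 and 180 against 243 and 188. The call ended without any 1 of the 4 libraries compared (adjusted p 0.120 to 0.270), with equal table totals (log2 difference 0.21) and with equal plastid totals (1.06, adjusted p 0.0513), and the log2 difference turned to -0.31 with equal miRNA totals. ATCG00490 had a log2 difference of 2.32 ± 0.43 (adjusted p 0.0942) and ATCG00640 one of -1.63 ± 0.39 (adjusted p 0.147), neither of which passed limma's test.

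To compare makeup within the plastid set alone, libraries were also scaled to equal plastid totals, and 60 plastid genes passed the filter. In ein5 dcl4 against Col-0, 1 gene was higher and 3 were lower, against 38.7% and 20.2% of all loci tested. The higher gene was ATCG01050, by 1.45 ± 0.39 on the log2 scale (limma adjusted p 0.0224). Between the triple and the double mutant, 4 were higher and 8 lower, against 6.12% and 42.8%, and 4 of these 8 formed 2 of the pairs with equal reads. ATCG00020 was among the higher genes, by 1.04 ± 0.25 (limma adjusted p 0.0196).

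Between the triple mutant and the wild type on this scale, 0 were higher and 2 lower by limma, against 0.596% and 10.4%, with 1 higher and 3 lower at an unadjusted p under 0.05, against 1.87% and 22.7%. The lower genes were ATCG00640, by -3.24 ± 0.37 (limma adjusted p 0.0127), and ATCG00650, by -2.76 ± 0.44 (limma adjusted p 0.0191). These genes were thus a smaller part of the plastid reads in the triple mutant than in both other genotypes, and the comparisons share libraries.

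**Figure D4:**
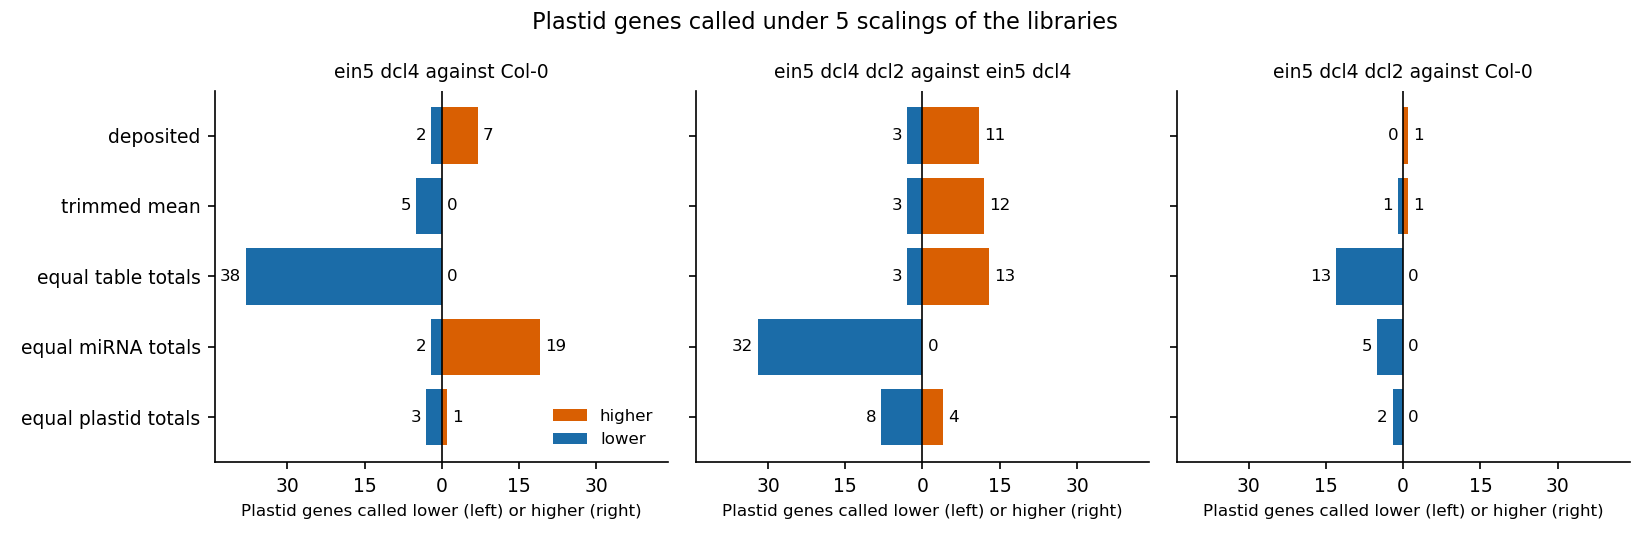
Number of plastid genes called lower (bars to the left) or higher (bars to the right) by limma in the 3 comparisons under 5 scalings of the libraries. The split turns from 7 higher and 2 lower with the deposited scaling to 0 and 38 with equal table totals in ein5 dcl4 against Col-0, and from 11 and 3 to 0 and 32 with equal miRNA totals in ein5 dcl4 dcl2 against ein5 dcl4.

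The genes with an annotated product had few reads, and none of them was called with the deposited scaling. ATCG00530, annotated as a CemA-like proton extrusion protein, held 8 and 11 reads in the wild type, 3 and 0 in the double mutant and 3 and 4 in the triple mutant. ATCG00430 held 3 and 7, 2 and 0, and 2 and 0 reads. An annotation note calls it photosystem II reaction center protein G, a name that was not checked further. ATCG01310, the ribosomal protein L2 gene, had log2 differences of 0.47 ± 0.38, 0.34 ± 0.38 and 0.81 ± 0.38 in the 3 comparisons (limma adjusted p 0.356, 0.494 and 0.428). ATCG00660 (ribosomal protein L20), ATCG00670 (the plastid subunit of the Clp protease) and ATCG00750 (ribosomal protein S11) did not pass the filter. ATCG00660 held 2 and 5 reads in the wild type, and neither ATCG00670 nor ATCG00750 held more than 2 reads in any library.

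Nuclear genes for plastid proteins were set beside the plastid genes, since many complexes hold subunits from both genomes. A list of 41 such genes, among them photosystem, ATP synthase and Rubisco small subunit genes, sigma factors and RNA-binding proteins of the plastid, had 28 tested members. In ein5 dcl4 against Col-0, 15 of the 28 were higher and 0 lower, against 38.7% and 6.45% of all loci tested, with a median log2 difference of 2.18 against 1.49 over all loci. Between the triple and the double mutant, 0 were higher and 9 lower, against 11.3% and 35.9%, with a median of -1.39 against -1.33, and in ein5 dcl4 dcl2 against Col-0 limma called 0 in either direction. At an unadjusted limma p under 0.05 the counts of higher and lower genes were 18 and 0, 0 and 13, and 6 and 0 in the 3 comparisons. The shares of all loci at that threshold were 44.1% and 9.38%, 13.5% and 39.4%, and 11.1% and 4.25%. Limma-voom called 26 and 0, 0 and 9, and 13 and 0, against 60.0% and 5.34%, 7.41% and 34.2%, and 42.2% and 2.42% of all loci. The smallest adjusted p in the first comparison belonged to CP29 (AT3G53460), a chloroplast RNA-binding protein, with 2 and 3 reads in the wild type, 11 and 7 in the double mutant and 2 and 1 in the triple mutant (log2 difference 3.77 ± 0.38, limma adjusted p 0.00298).

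ATPC1 (AT4G04640), the gamma subunit of the plastid ATP synthase, held 4 and 2, 10 and 8, and 4 and 1 reads, a log2 difference of 3.74 ± 0.55 between the double mutant and Col-0 (limma adjusted p 0.00694). PSBO2 (AT3G50820), a subunit of the oxygen-evolving complex of photosystem II, held 4 and 1, 4 and 4, and 0 and 0 reads, with a log2 difference of 2.79 ± 0.39 in the same comparison (limma adjusted p 0.00629). The sizes of these differences, and of that of CP29, rest partly on the deposited scaling, in which 1 read is worth more in the double mutant. Under the 4 other scalings the list's median log2 difference was 0.39 to 2.97 between the double mutant and the wild type, -3.42 to -0.85 between the triple and the double mutant, and -0.86 to 0.13 between the triple mutant and the wild type, with 19 to 37 genes tested. In ein5 dcl4 against Col-0, 7 of 19 were higher and 0 lower with trimmed-mean factors, against 28.6% and 27.7% of all loci. With equal table totals 2 of 19 were higher and 1 lower, against 16.8% and 49.7%. Equal plastid totals gave 14 of 25 higher and 0 lower, against 38.7% and 20.2% of all loci. Equal miRNA totals gave 22 of 37 higher and 0 lower. For that setting the share of all loci is not given here, so its counts show no change particular to the listed genes. Between the triple and the double mutant, 0 were higher under all 4. There 3 of 19 were lower with trimmed-mean factors and 3 of 19 with equal table totals. Shares of all loci are not given here for these settings, so the counts cannot be set against all loci. With equal miRNA totals 23 of 37 were lower and with equal plastid totals 16 of 25, against 46.4% and 42.8% of all loci. Both sets of genes were tested in the same fit, and the difference between the plastid and the nuclear genes was not itself tested.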

How the data were processed

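Small RNAs bound to AGO1 were sequenced in 6 libraries, 2 for each of 3 genotypes, and read 1 alone was used, per the labels' protocols. The TAIR10 build, Bowtie 1.2.2, SAMtools 1.9 and DESeq2 are named, with no role for each, per the submitters' processing notes. For size limits, strand and multiply matching reads, the handling is not given in the sources used here. For each locus and genotype the authors deposited 1 signal value, headed TPM although the columns sum to unequal totals. The deposited table also held the authors' log2 fold change, p-value and adjusted p-value of each locus for 2 comparisons.

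Whole reads of both libraries were recovered from the deposited means, within a relative tolerance of 1e-14 for 100% of the values above 0. Each of these means was 1 pair of whole numbers of reads times 2 steps. The deposited values being no counts, limma 3.58.1 (R 4.3.3) was fitted to log2(units + 1), with 1 mean per genotype, all 6 libraries in 1 fit, a trended prior, 3 residual degrees of freedom and Benjamini-Hochberg adjustment over the 11376 loci whose mean reached 1 unit. Fold changes on this scale understate the change of low loci. Shares were compared by exact permutation tests, and other quantities computed in Python 3.11.15. The fit was tested on reads simulated with a dispersion of 0.01, which was set by hand. It recovered 28% to 37% of 4-fold changes and 70% to 75% of 16-fold changes, with 0 to 4 false calls. A gene that was not called may therefore still differ. The changed loci came only from those with means well above the filter's 1 unit, so recovery for the lowest genes tested was not measured. Nor was the dispersion fitted to these libraries, so the number of false calls need not hold for them. Intervals and the floor of 3 reads cover counting error only.

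The members and lists were chosen with earlier results of these data known. The rule for named genes took every called plastid gene, or the 5 largest changes each way, the 10 genes with the most reads, ribosomal RNA genes and 1 gene of each functional class. It could not be applied in full, since identifiers are not paired with symbols. Printed instead, a choice made after the values were seen, are up to 2 of the largest changes each way per comparison among the genes called, the 2 genes with the most reads, the genes called lower in the triple mutant, those with an annotated product, ATCG00830 and ATCG00890, and 3 nuclear genes. Shares of ribosomal RNA, transfer RNA and protein-coding genes were not computed for the same reason. The alternatives were other scalings, pseudocounts, filters, limma-voom and leaving out each library.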

Additional observations from a re-analysis of the deposited data

How the results depend on the processing

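Counts of called plastid genes moved with most alternatives, and the causes were not tested. The shares of all loci called are given above for some of these settings only. For the others a count cannot be set against all loci, so it does not show a change particular to plastid genes. In ein5 dcl4 against Col-0, 7 higher and 2 lower became 0 and 5 with trimmed-mean factors, 0 and 38 with equal table totals, 19 and 2 with equal miRNA totals, 1 and 3 with equal plastid totals, 6 and 0 with a pseudocount of 5, 4 and 0 without a filter or with a mean of at least 10 units, and 17 and 0 with limma-voom. In ein5 dcl4 dcl2 against ein5 dcl4, 11 and 3 became 0 and 32 with equal miRNA totals, 4 and 8 with equal plastid totals, 5 and 4 without a filter, and 4 and 3 with a mean of at least 10. In ein5 dcl4 dcl2 against Col-0, 1 and 0 became 1 and 1 with trimmed-mean factors, 0 and 13, 0 and 5, and 0 and 2 with equal table, miRNA and plastid totals, 5 and 1 with a mean of at least 10, and 30 and 0 with limma-voom. Leaving out 1 library of the genotypes compared gave 0 to 10 higher and 0 to 2 lower in the first comparison, 4 to 14 and 3 to 5 in the second, and 0 and 0 in the third. Leaving out a library of the genotype outside the comparison gave 9 higher and 0 or 1 lower, 3 and 3, and 2 or 3 and 0; a lone library was assumed to vary like the other genotypes.

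The median log2 difference of all loci tested in the first comparison shifted from 1.49 to 0.23 with trimmed-mean factors, -1.63 with equal table totals, 1.54 with equal miRNA totals and 1.22 with equal plastid totals. It shifted from -1.33 to -0.64, -0.18, -2.15 and -1.51 in the second comparison and from 0.00 to -0.27, -1.40, -0.27 and -0.40 in the third.

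For single genes, log2 differences between ein5 dcl4 and Col-0 turned with equal table totals to -0.70 (ATCG01050), -0.94 (ATCG00740), -1.33 (ATCG00640), -1.40 (ATCG00650) and -2.19 (ATCG00020, which was -0.58 with trimmed-mean factors). With equal miRNA totals those between ein5 dcl4 dcl2 and ein5 dcl4 turned to -1.15 (ATCG00350), -2.08 (ATCG00020) and -2.23 (ATCG00490), and ATCG00020 was at -0.31 between ein5 dcl4 dcl2 and Col-0. The plastid share of all reads differed by -0.0872, 0.0374 and -0.0498 percentage points in the 3 comparisons. Per 100 miRNA reads the first 2 turned to 0.396 and -0.498, and the third turned to 0.0328 without the 10 largest loci and to 3.53 per 100 nuclear protein-coding reads. Counting pairs with equal reads once kept all 3 directions.

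No paired analysis was possible because the recovered libraries cannot be tied to the replicate numbers of the labels. Dividing values by gene length was not run, as the identifiers could not be matched to gene models. Depth limits all comparisons: 45, 10 and 16 plastid genes reached 10 reads over both libraries of the wild type, the double and the triple mutant.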
